A study of Mus musculus with 6 samples.

Results

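Desmosomes are the button-like junctions that hold epidermal cells together and tie the keratin filaments of neighbouring cells to each other. Their adhesive proteins are desmogleins and desmocollins, cadherins that reach across the gap between cells. Plakoglobin and the plakophilins bind the tails of these cadherins inside the cell, and desmoplakin links that plaque to keratin. In stratified epidermis the cadherins change with the layer: desmoglein 3 and desmocollin 3 are known from the basal layers, desmoglein 1 and desmocollin 1 from the upper ones, and desmoglein 2 and desmocollin 2 are minor isoforms that are weakest above the basal layers.

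The desmosome genes described here are 10 rows of a table of 19618 genes, found by their symbols: the cadherins Dsg1a, Dsg1b, Dsg2, Dsg3, Dsc1, Dsc2 and Dsc3, and the plaque genes Pkp1, Pkp3 and Dsp. For the comparison of layers, Dsg1a, Dsg1b and Dsc1 were taken as the 3 suprabasal cadherins and Dsg2, Dsg3, Dsc2 and Dsc3 as the 4 basal ones. All 10 passed the filter on low counts. Transcripts were sequenced from tail keratinocytes isolated from mice at an age of 4 months. The 3 knockout samples came from mice with K14cre, a Cre recombinase driven by a keratin 14 promoter that is active in basal keratinocytes and hair follicles, and homozygous for a floxed allele of Gpr161, a cilium receptor known to restrain Hedgehog signalling. The 3 control samples came from mice with the floxed Gpr161 allele and without K14cre: the first was homozygous for it and the others heterozygous, so no control carried Cre. The study asked how loss of epidermal Gpr161 alters keratinocyte gene expression.

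The libraries held 17157864 to 25344399 estimated counts and are named by the tags in the table, DE679, DE685 and DE688 for knockout and DE680, DE684 and DE689 for control. The whole-gene count of Gpr161 did not check the labels (log2 fold change −0.13, edgeR adjusted p 0.553), but the Hedgehog target Gli1 had 66.7 to 74.5 CPM in the knockout libraries and 8.25 to 9.96 in the control. CPM is a count scaled to library size with TMM factors. DE685 and DE684 were set apart by Y-linked transcripts, with 3311 and 5291 counts against at most 3 in the other libraries. Summed markers of other cells were higher in the knockout for fibroblasts (129 to 142 against 37.3 to 79.0 CPM) and hair follicle (2491 to 2803 against 1886 to 2394 CPM). Their ranges overlapped for immune cells (49.8 to 122 against 26.2 to 103 CPM), did not for melanocytes (79.2 to 117 against 54.0 to 78.9 CPM), and endothelial markers summed to at most 5.79 CPM in any library. The fibroblast sum was mostly Dcn, the 1 of 5 markers past the threshold, and 3 of the 5 had estimates below 0 (median log2 fold change −0.38). Of the hair follicle markers 1 of 6 passed, Nfatc1, and of the melanocyte and immune markers 0 of 6 and 0 of 5. Over all genes tested, 1.60% passed the same edgeR threshold. The part of these cells in the values below was not tested.

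No desmosome gene differed between the groups past the threshold: 0 of 10 reached an adjusted p below 0.05 with edgeR's quasi-likelihood fit, where 1.60% of the 15422 genes tested did. At an unadjusted p under 0.05 there was 1 of 10, Dsc1, where 19.0% of all genes passed. The estimates lay below 0 for 7 of the 10 and above 0 for 3, with a median log2 fold change of −0.13, against a median of −0.0036 and 50.7% below 0 over all genes tested. The knockout and control libraries did not overlap for Dsc1 and Dsp, 2 of 10, where 25.6% of all genes did not overlap. The counts of calls and of groups without overlap are near those of the whole table or below them. The share of estimates below 0 is above that of the whole table. That share rests on 10 genes, of which Dsg1a and Dsg1b share sequence, and was not tested. DESeq2 gave 1 of 10, again Dsc1, with 5.88% of all genes called, and so did edgeR with a term for Y-linked transcripts, with 2.65% called.

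**Figure D1:**
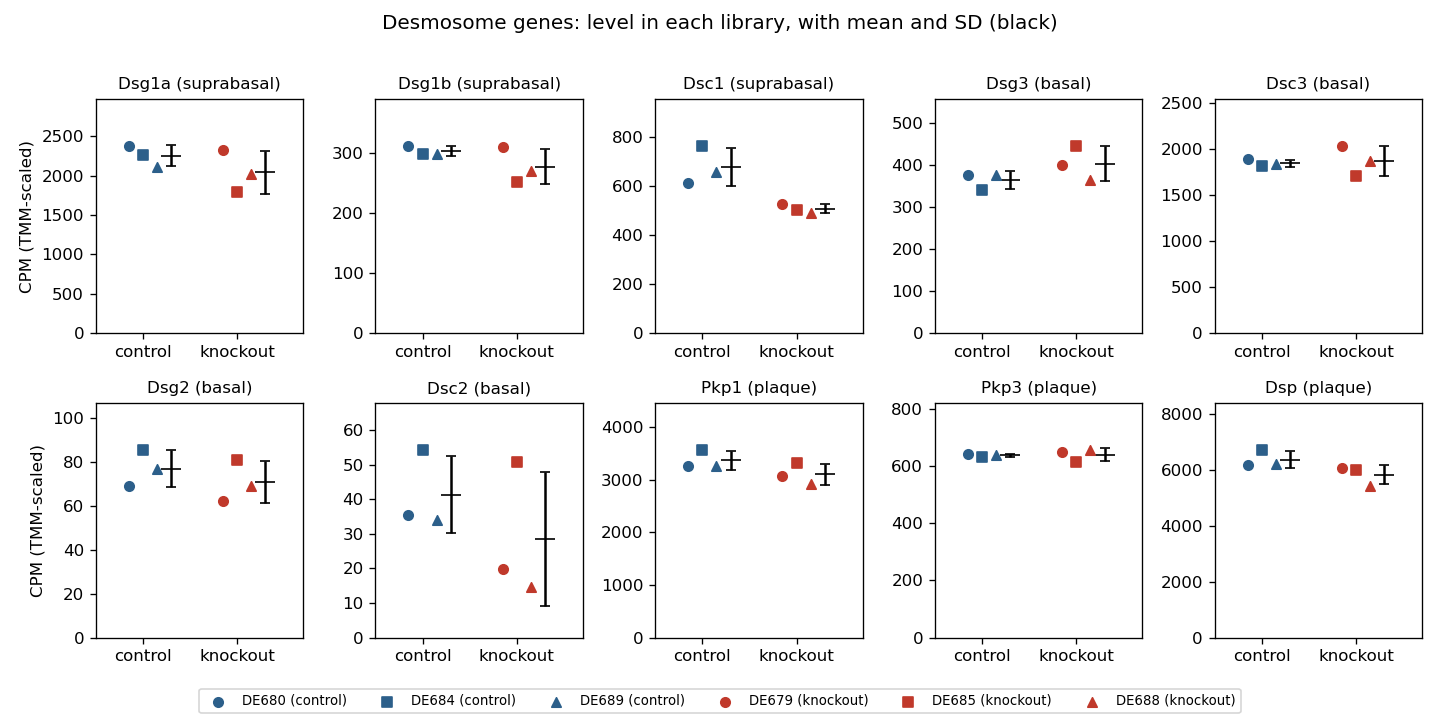
TMM-scaled CPM (y axis, from 0) of the 10 desmosome genes in each control (blue) and knockout (red) library, with the mean and SD of each group of 3 in black. The groups separate for Dsc1 and narrowly for Dsp, and the libraries DE684 and DE685 stand above the others for Dsc2 and, by less, for Dsg2 and Pkp1.

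The suprabasal desmocollin gave the clearest difference of the family. Dsc1 (chromosome 18, 20084184 to 20114871, minus strand, GRCm38) encodes the desmocollin of the upper spinous and granular layers. It had 527, 504 and 491 CPM in DE679, DE685 and DE688, and 613, 764 and 656 CPM in DE680, DE684 and DE689. Every knockout library lay below every control library, and the knockout libraries were closer to each other than the controls were. Knockout libraries averaged 507 ± 18.4 CPM and control libraries 678 ± 78.2 CPM (SD, n = 3 each). This is a log2 fold change of −0.42 (SE 0.088, 95% interval −0.62 to −0.21), and it missed the threshold after adjustment over all genes (edgeR adjusted p 0.0700). The Wald test of DESeq2 called it (−0.42, adjusted p 0.000371), as did edgeR with a term for Y-linked transcripts (−0.41, adjusted p 0.0382). In bulk samples, fewer upper-layer cells and less Dsc1 RNA per cell cannot be told apart.

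The desmogleins of the same layers differed less and overlapped between the groups. Dsg1a (chromosome 18, 20310811 to 20343350, plus strand) and Dsg1b (chromosome 18, 20376729 to 20410196, plus strand) are mouse copies of the desmoglein 1 gene, whose protein is the main desmoglein of the upper epidermis and the target of autoantibodies in pemphigus foliaceus. Dsg1a had 2325, 1787 and 2014 CPM in DE679, DE685 and DE688, and 2379, 2257 and 2115 CPM in DE680, DE684 and DE689. DE679 lay among the controls, while DE685 had the lowest value of the 6. The log2 fold change of Dsg1a was −0.14 (95% interval −0.38 to 0.096, edgeR adjusted p 0.491). It was −0.054 without DE685 and −0.24 without DE679.

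Dsg1b followed Dsg1a at a lower level. It had 309, 252 and 269.9 CPM in DE679, DE685 and DE688 and 312, 298 and 298 CPM in DE680, DE684 and DE689, with a log2 fold change of −0.13 (95% interval −0.32 to 0.062, edgeR adjusted p 0.433), and −0.065 without DE685 and −0.21 without DE679. The ratio of Dsg1a to Dsg1b counts stayed between 7.09 and 7.63 in all 6 libraries. The copies are hard to tell apart by short reads: 29.15% of the distinct stretches of 75 bases in the longest Dsg1a transcript, and 39.7% of those in Dsg1b, also occur in another gene's transcripts, in Dsg1b, Dsg1a or Dsg1c. The split of counts between them is therefore uncertain. The longest transcripts of the other 8 genes shared no such stretch with another gene's transcripts read in the same direction. The opposite strand was not searched. With Dsg1a, Dsg1b and Dsg1c summed, the change was −0.14 (edgeR adjusted p 0.485).

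The basal cadherins gave no common direction. Dsc3 (chromosome 18, 19960930 to 20002351, minus strand), the main desmocollin of basal keratinocytes, had 2034, 1707 and 1863 CPM in DE679, DE685 and DE688, and 1886, 1810.0 and 1836 CPM in DE680, DE684 and DE689. The controls sat inside the range of the knockout libraries, and the log2 fold change was 0.019 (95% interval −0.16 to 0.20, edgeR adjusted p 0.921).

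Dsg3 (chromosome 18, 20510274 to 20547459, plus strand) encodes the desmoglein of the lower layers, the autoantigen of pemphigus vulgaris. It had 400.2, 447 and 364 CPM in DE679, DE685 and DE688, and 376, 341 and 378 CPM in DE680, DE684 and DE689. A pair of knockout libraries, DE679 and DE685, lay above all controls, and DE688 lay within the control range. The log2 fold change was 0.15 (95% interval −0.055 to 0.35, edgeR adjusted p 0.398). It was 0.097 without DE684, 0.066 without DE685 and 0.018 with both left out, but 0.21 without DE688 and 0.17 without DE689.

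Dsg2 (chromosome 18, 20558074 to 20604521, plus strand), the desmoglein shared with simple epithelia and heart, was low in these cells. It had 62.0, 80.8 and 68.7 CPM in DE679, DE685 and DE688, and 68.7, 85.3 and 76.4 CPM in DE680, DE684 and DE689. The groups overlapped, with a log2 fold change of −0.12 (95% interval −0.39 to 0.14, edgeR adjusted p 0.591). It was −0.035 without DE679, −0.044 without DE684, −0.20 without DE680 and −0.23 without DE685. Its exons overlap 330 bases of the antisense gene Gm16090 in the GENCODE annotation, and whether counting used the strand is not given in the sources used here.

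Dsc2 (chromosome 18, 20030633 to 20059554, minus strand), the most widely expressed desmocollin across tissues, varied more than any other of the 10 genes. It had 20.0, 50.8 and 14.8 CPM in DE679, DE685 and DE688, and 35.6, 54.4 and 34.2 CPM in DE680, DE684 and DE689. The highest library held 3.68 times the lowest, where this ratio was 1.07 to 1.56 for the other 9 genes. Counts do not limit this: the libraries held 380 to 1239 Dsc2 counts. In both groups the library with Y-linked transcripts was the high one, which is 1 library a group. The same held, with smaller gaps, for Dsg2 and Pkp1. The log2 fold change was −0.55 (95% interval −1.54 to 0.44, edgeR adjusted p 0.521). Single libraries moved it in both directions: it was −1.25 without DE685 (adjusted p 0.0824), and −0.34, −0.31 and −0.23 without DE679, DE684 and DE688. With a term for Y-linked transcripts the Dsc2 change was −0.69 (SE 0.19, edgeR adjusted p 0.106). With DE684 and DE685 both left out it was −1.01 (adjusted p 0.0638).

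The order of the libraries by Dsc2 was also their order by Krt1, the keratin of the first suprabasal layers, a gene singled out here after its values were seen. Krt1 had 4303 CPM in DE684 and 4159 in DE685, then 2777 in DE680, 1976 in DE689, 1898 in DE679 and 1563 in DE688. Its highest library held 2.75 times the lowest. Krt10, the partner of Krt1 in the same filaments, ranged from 12432 to 25272 CPM with DE684 highest and DE688 lowest, but with DE680 ahead of DE685 and DE679 ahead of DE689. Dsc1 did not share this order, since DE685 was among its low libraries. Over 6 libraries these orders are a description only.

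**Figure D2:**
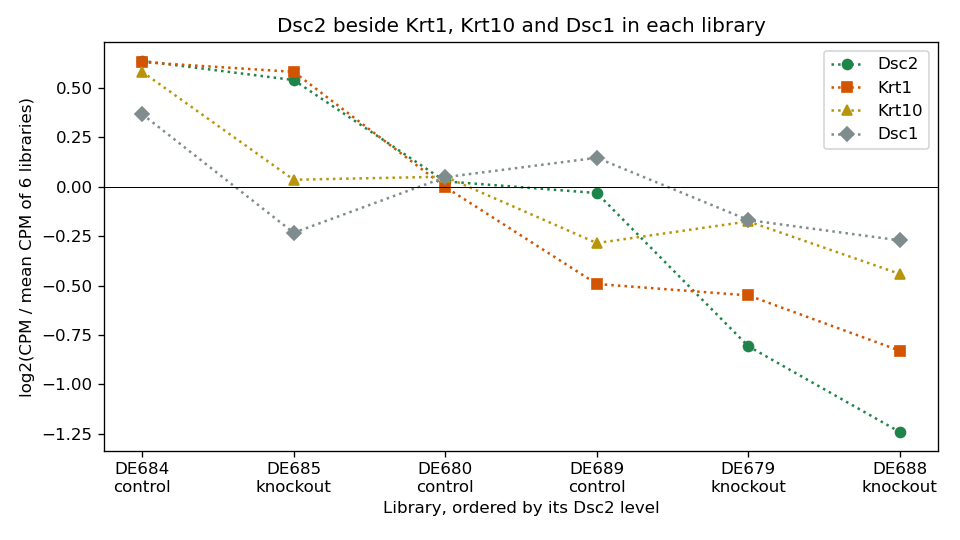
Level of Dsc2, Krt1, Krt10 and Dsc1 in each library as log2 of CPM over the mean of all 6 (y axis), with libraries on the x axis in the order of their Dsc2 level and dotted lines only to guide the eye. Krt1 falls in the same order as Dsc2, from 4303 CPM in DE684 to 1563 CPM in DE688, while Dsc1 is low in DE685.

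Of the plaque genes, Pkp3 varied least of all 10 desmosome genes across the libraries. Pkp3 (chromosome 7, 141078218 to 141090510, plus strand), the plakophilin found through all living layers, had 649, 614 and 657 CPM in DE679, DE685 and DE688, and 642, 631 and 641 CPM in DE680, DE684 and DE689. The 6 libraries spanned a ratio of 1.07, and the control SD was 0.959% of the mean. The log2 fold change was 0.0052 (95% interval −0.13 to 0.14, edgeR adjusted p 0.971).

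Pkp1 (chromosome 1, 135871395 to 135919207, minus strand), the plakophilin most abundant in the suprabasal layers, had 3072, 3319.9 and 2928 CPM in DE679, DE685 and DE688, and 3268, 3569 and 3265 CPM in DE680, DE684 and DE689. DE685 reached into the control range, and the log2 fold change was −0.12 (95% interval −0.29 to 0.053, edgeR adjusted p 0.423). It was −0.074 without DE684 and −0.076 without DE688, but −0.17 without DE685.

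Dsp (chromosome 13, 38151294 to 38198577, plus strand) encodes desmoplakin, the obligate link to keratin. It had 6070, 5994 and 5439 CPM in DE679, DE685 and DE688, and 6198, 6723 and 6202 CPM in DE680, DE684 and DE689. The groups did not overlap, but the gap between DE679 and DE680 was small, and the log2 fold change of −0.13 missed the threshold (95% interval −0.29 to 0.037, edgeR adjusted p 0.369). It was −0.080 without DE688 and −0.15 without DE679. Its exons overlap 499 bases of Gm10129 on the opposite strand.

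**Figure D3:**
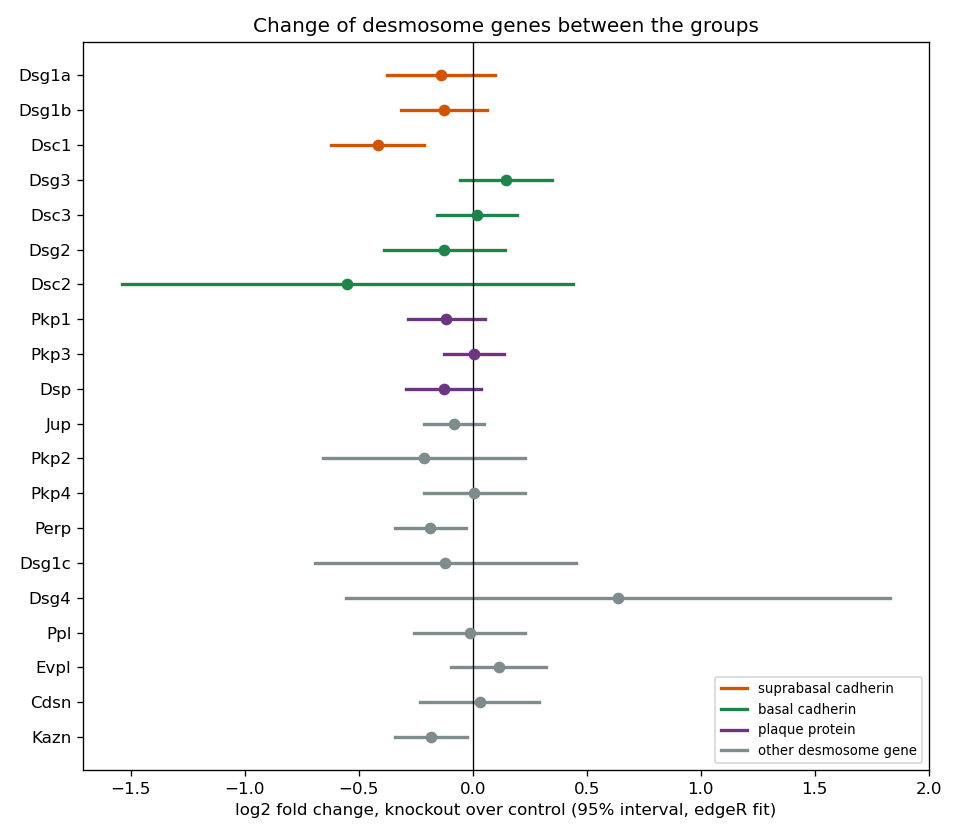
Log2 fold change of knockout over control (x axis) with its 95% interval from the edgeR fit, for the 10 desmosome genes by class and for the other desmosome genes in grey. Among the 10, the interval of Dsc1 alone (−0.62 to −0.21) lies clear of 0 before adjustment, and that of Dsc2 is the widest. Dsg4, in grey, has a wider one (−0.55 to 1.83).

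Suprabasal and basal isoforms were then set against each other within each library. The summed CPM of Dsg1a, Dsg1b and Dsc1 was 1.26, 1.11 and 1.20 times that of Dsg2, Dsg3, Dsc2 and Dsc3 in DE679, DE685 and DE688, and 1.40, 1.45 and 1.32 times in DE680, DE684 and DE689. Each knockout library had a lower ratio than each control. On the log2 scale the means were 0.25 ± 0.089 in the knockout and 0.47 ± 0.068 in the control (SD, n = 3 each), a difference of −0.22. No test was made of this score, and 3 libraries against 3 cannot go below 0.1 in an exact two-sided permutation test.

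The shift in the ratio came with the suprabasal sum more than the basal one. The suprabasal cadherins summed to 3162, 2543 and 2775 CPM in DE679, DE685 and DE688 and to 3304, 3320 and 3069 CPM in DE680, DE684 and DE689. The basal cadherins summed to 2516, 2286 and 2311 CPM in the knockout and to 2366, 2290.3 and 2325 CPM in the control libraries, in the same order. Dsg1a made up 68.0% to 73.5% of the suprabasal sum and Dsc3 74.7% to 80.8% of the basal sum, so in level the ratio mostly sets these genes against each other. Dsc1 made up 16.7% to 23.0% of the suprabasal sum, and its mean was 507 CPM in the knockout and 678 in the control. The mean of Dsg1a was 2042 and 2250 CPM, so the shift in this ratio in part restates the Dsc1 difference.

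By family, the desmocollin ratio kept the groups apart and the desmoglein ratio did not. Dsc1 over Dsc2 plus Dsc3 was 0.257, 0.287 and 0.261 in DE679, DE685 and DE688 and 0.319, 0.410 and 0.351 in DE680, DE684 and DE689, a log2 difference of −0.42. Dsc1 alone had the same log2 fold change, −0.42, and Dsc3 had 0.019, so this ratio largely restates the Dsc1 difference. Dsg1a plus Dsg1b over Dsg2 plus Dsg3 was 5.70, 3.86 and 5.27 in the knockout and 6.05, 6.00 and 5.31 in the control libraries. In that desmoglein ratio DE679 exceeded DE689, so the groups overlapped, and the log2 difference of −0.24 came largely with DE685. When each gene counted equally, by the mean of log2 values, the difference was −0.060 and the groups overlapped. With DE684 and DE685 both left out, the difference of the summed ratio was −0.14.

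**Figure D4:**
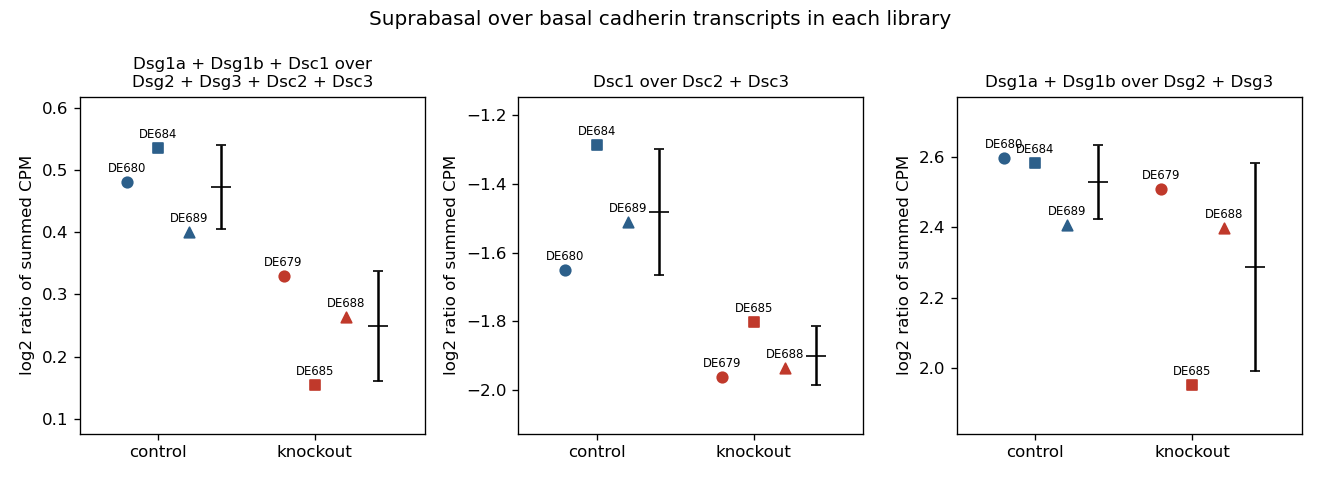
Log2 ratio of suprabasal to basal cadherin CPM in each library (y axis, not starting at 0), for all cadherins, desmocollins and desmogleins, with the mean and SD of each group of 3 in black. Knockout libraries lie below all controls in the first and second panels, and DE679 lies above DE689 in the third.

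Markers of the layers were read from the same fit. Of 10 suprabasal keratinocyte markers, 0 passed the edgeR threshold and all 10 had estimates below 0 (median log2 fold change −0.31). Their summed level was 27833 to 37690 CPM in the knockout and 32444 to 54324 CPM in the control libraries, which overlap. Of 8 basal markers, 0 passed and 6 had estimates above 0 (median 0.14), with summed levels of 31444 to 35252 CPM in the knockout and 27353 to 32400 CPM in the control. Of all genes tested, 1.60% passed and 50.7% had estimates below 0. Krt77, a suprabasal keratin outside these lists, had an estimate above 0 and is given below. The part of either marker list in the cadherin ratio was not tested.

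The other genes of the desmosome showed the same absence of calls. Of 10 further components, 0 passed the edgeR threshold, where 1.60% of all genes did, and the median log2 fold change was −0.048. An unadjusted p under 0.05 was found for 2 of the 10, near the 19.0% of all genes. Perp, a membrane protein of desmosomes and a known target of p63, had 3898, 4031 and 3642 CPM in DE679, DE685 and DE688, and 4462, 4512 and 4190.2 CPM in DE680, DE684 and DE689. Its groups did not overlap, and its log2 fold change was −0.19 (95% interval −0.34 to −0.030, edgeR adjusted p 0.199). Kazn, which encodes kazrin, a partner of periplakin, had a log2 fold change of −0.18 (edgeR adjusted p 0.216).

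Adherens junctions and keratins were read from the same fit. Among 9 adherens junction genes, 0 passed the edgeR threshold, where 1.60% of all genes did, and the median log2 fold change was 0.030. The smallest p-values there belonged to Cdh3, or P-cadherin, which marks basal and follicle cells (0.21, edgeR adjusted p 0.183), and to Nectin4 (−0.15, edgeR adjusted p 0.184). Of 7 keratins that desmosomes anchor, 1 passed, where 1.60% of all genes did. An unadjusted p under 0.05 was found for 3 of the 7, where 19.0% of all genes had one. The one that passed was Krt77, a suprabasal keratin, with 22.3, 43.8 and 45.4 CPM in DE679, DE685 and DE688 and 9.89, 11.7 and 15.2 CPM in DE680, DE684 and DE689 (log2 fold change 1.60, edgeR adjusted p 0.0395). The estimates of the other suprabasal keratins lay below 0, at −0.25 for Krt1, −0.34 for Krt10 and −0.46 for Krt2, and those of the basal keratins Krt5, Krt14 and Krt15 above it, at 0.21, 0.029 and 0.38. None of these 6 passed.

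Transcription factors of the epidermis were read from the same fit, and 0 of 7 passed, where 1.60% of all genes did. Of the 7, 3 had an unadjusted p under 0.05 and 3 had groups that did not overlap. Over all genes these shares were 19.0% and 25.6%. Grhl1, a known activator of the desmoglein 1 gene, had 201, 216 and 197 CPM in DE679, DE685 and DE688 and 263, 240.4 and 239.6 CPM in DE680, DE684 and DE689. The groups did not overlap, with a log2 fold change of −0.27 (95% interval −0.42 to −0.12, edgeR adjusted p 0.0925). Trp63, which encodes the basal regulator p63, had 639 to 656 CPM in the knockout and 523 to 568 CPM in the control libraries, a log2 fold change of 0.23 (edgeR adjusted p 0.104).

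Levels were compared between genes per length, as mean CPM per kilobase of exon in the control libraries. Pkp1 (670.2 ± 34.7) and Dsp (660.0 ± 31.3) were highest and did not differ beyond their spread. Dsg1a (396 ± 23.3) and Dsc3 (341 ± 7.14) followed, and their ranges over the 6 libraries overlapped (314 to 418 and 316 to 376). Pkp3 (176 ± 1.69) and Dsc1 (134 ± 15.5) came next without overlap, then Dsg1b (76.4 ± 2.02) and Dsg3 (52.3 ± 3.03), whose ranges touched. Dsg2 (9.29 ± 1.00) and Dsc2 (7.84 ± 2.13) were lowest and overlapped. In the knockout the order of all 10 genes was the same, with Dsc1 at 101 ± 3.64 CPM per kilobase.

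**Figure D5:**
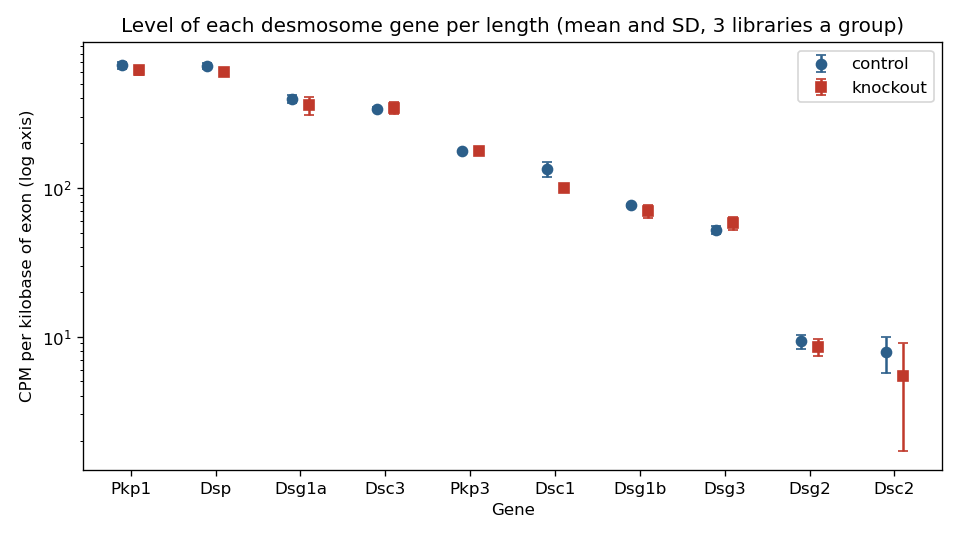
Mean level of each desmosome gene in CPM per kilobase of exon (y axis, log scale), with the SD of 3 control (blue) and 3 knockout (red) libraries. Pkp1 and Dsp lead at 670.2 and 660.0 in the control, and Dsg2 and Dsc2 lie below 10.

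The 7 cadherin genes among the 10 lie in 1 cluster on chromosome 18, from 19960930 to 20604521. Their desmocollins are on the minus strand and their desmogleins on the plus strand. By position, the log2 fold changes began with Dsc3 (0.019) at one end, then Dsc2 (−0.55, with its wide interval) and Dsc1 (−0.42). Dsg1a (−0.14), Dsg1b (−0.13) and Dsg3 (0.15) followed, with Dsg2 (−0.12) at the other end. Among these 7 genes the values thus rose from Dsc2 to Dsg3, and the genes at both ends broke that order. Other desmogleins, Dsg1c (log2 fold change −0.12) and Dsg4 (0.64), had at most 1.82 CPM in any library and were not placed in this order. A part of position in the changes was not tested.

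Among 9679 other genes with a mean of at least 10 CPM, those most like Dsc1 in log2 CPM over the 6 libraries were Tmem170b, Itgb5, Nemf, Them5 and Psd3, with Pearson's r from 0.999 to 0.988. Of these 5, Them5 (log2 fold change −0.49, edgeR adjusted p 0.0254) and Psd3 (−0.66, edgeR adjusted p 0.0366) passed the threshold, where 1.60% of all genes did. The 5 were picked for following Dsc1 over these same libraries, and Dsc1 separated the groups. Their calls therefore follow from the choice and are no separate evidence. The genes most like Dsc3 were Gpn3, Wrn, Zfp280b, Nudt1 and Snap23, with r from 0.990 to 0.965, and 0 of these 5 passed. With 6 points and so many genes, such values arise easily and are given as a description.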

How the data were processed

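Per the labels' protocols, epidermis from tail skin was separated with trypsin and dispase, and stranded libraries were prepared from polyadenylated RNA. Per the submitters' processing notes, the tools were bcl2fastq 2.20, cutadapt 1.18, STAR 2.7.0f and Partek with mm10; the counting method and annotation are not given in the sources used here. The authors deposited estimated counts per gene (53.5% to 58.3% of values whole) and a normalized signal per gene.

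Estimated counts were rounded, filtered with filterByExpr, scaled by TMM and tested over all 15422 remaining genes with the quasi-likelihood test of edgeR 4.0.16, genotype being the only term. P-values were Benjamini-Hochberg adjusted and the threshold was 0.05. Standard errors and 95% intervals came from the fold change, its F statistic and the fit's degrees of freedom. DESeq2 1.42.0 and limma 3.58.1 were alternatives. The fit was tested on simulated data. Columns name a group but no replicate, and the labels do not tie each sample to its own mouse, so p-values measure the spread between these samples. Replicates differed beyond sampling noise (chi-square over its degrees of freedom, 12.7 to 42.0). Exon lengths, coordinates and overlaps are from GENCODE vM21 (GRCm38), in which 18896 of 19618 genes had the table's coordinates within 1 base.

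The genes and lists were chosen with earlier results of these data known. Genes named were the 10 desmosome genes; from each further list those past the threshold, or otherwise the 2 with the smallest p; the 5 most like Dsc1 and Dsc3; and Gpr161, Gli1 and Ptch1. Named outside this rule, after their values were seen, were the other keratins, Krt1 and Krt10 among them, and the markers Dcn and Nfatc1. Ptch1 had a log2 fold change of 1.58 (edgeR adjusted p 0.00228). Of the skeletal muscle markers, 1 of 3 was tested, and their sum was at most 2.19 CPM. Sequences of the cadherins and plaque proteins were not used here beyond the count of shared stretches.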

Additional observations from a re-analysis of the deposited data

How the results depend on the processing

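The number of desmosome genes past the threshold was 0 with edgeR and in every other alternative except DESeq2 and the term for Y-linked transcripts, each of which gave 1 (Dsc1); the cause was not tested. The alternatives were other scaling factors, other filters, limma-voom, limma on the authors' normalized signal (log2, pseudocount 1), the summed Dsg1 copies, and each library left out. Leaving out DE684 and DE685 together was chosen after seeing the data. Over all genes, DESeq2 called 862 against 247, the Y-linked term 409, leaving out 1 library 69 (without DE688) to 121 (without DE684), and leaving out DE684 and DE685 together 87. Leaving out 1 library moved the Dsc1 change from −0.49 (without DE680, edgeR adjusted p 0.0750) to −0.32 (without DE684, edgeR adjusted p 0.104). The highest edgeR adjusted p of these fits was 0.233, without DE688. The Dsc3 change reversed to −0.042 without DE679 and reached 0.079 without DE685. Pkp3 reversed to −0.00038, −0.0043 and −0.015 without DE679, DE684 and DE688 and reached 0.033 without DE685. The other 8 genes kept their direction in all 16 alternatives.

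The log2 difference in the suprabasal to basal ratio was −0.22, against −0.42 for desmocollins alone, −0.060 for the mean of log2 values and −0.14 with DE684 and DE685 both left out. It ranged from −0.26 to −0.18 with 1 library left out. It changed little per kilobase, with the authors' values, or with Dsg3 and Dsc3 alone as basal (−0.24 to −0.22). For desmogleins alone the difference was also −0.24, but the groups overlapped and the knockout SD was 0.30. No paired analysis was possible because the columns carry no replicate numbers.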
